A study of Mus musculus with 24 samples.

Results

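The collagens are the triple-helical proteins of the extracellular matrix, and the 44 genes described here are the protein-coding genes of the mouse GENCODE annotation of GRCm38 whose symbol has the form of a collagen chain, Col plus a type number, the letter a and a chain number. All 44 were among the 49585 gene identifiers counted in each library. By the family's usual division they fall into 11 fibrillar genes, 6 basement membrane genes (type IV), 6 type VI genes and 21 genes of other classes, namely 9 fibril-associated, 4 transmembrane, 3 short-chain network, 3 anchoring and remaining genes and 2 multiplexins. The 24 libraries, in 6 groups, hold RNA of whole fat depots taken from C57BL/6J males. In GAT, the fat depot beside the epididymis, 4 Azin2-/- libraries were set against 4 from wild-type littermates, and in SAT, the subcutaneous depot, 3 Azin2-/- against 5 wild-type libraries. These mice, knockout and wild-type alike, had eaten a diet with 60% of calories from fat for 8 weeks. A separate experiment in wild-type SAT set 4 libraries of mice fed 60% of calories as fat for 20 weeks (high-fat SAT) against 4 of mice fed 10% for the same time (low-fat SAT). The sources used here do not give ages, whether a library is 1 animal, or which part of Azin2 is deleted and in which cells.

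Collagen chains are made in the endoplasmic reticulum, where prolines and lysines are hydroxylated, 3 chains join and the helix is closed under the chaperone Hsp47. Fibrillar chains are then cut outside the cell and packed into fibrils that lysyl oxidases crosslink. Type IV chains form the sheet-like basement membrane that wraps every adipocyte and capillary, and type VI forms beaded microfilaments between that sheet and the fibrils. In fat, the matrix is laid down by fibroblast-like progenitors, adipocytes, endothelial cells and pericytes, and its growth in obesity is known as adipose fibrosis.

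Libraries held 31.96 to 46.62 megareads counted to genes. Levels are given as normalised CPM, counts per megaread scaled by TMM factors (trimmed mean of M values) over all 24 libraries. Azin2 encodes an antizyme inhibitor, a protein that relieves the brake antizyme puts on polyamine synthesis. It had 12.3 to 18.7 CPM in Azin2-/- GAT against 22.4 to 25.7 CPM in wild-type GAT, and 8.07 to 11.7 CPM in Azin2-/- SAT against 16.1 to 25.3 CPM in wild-type SAT. Azin2 was lower in every knockout library than in every wild-type library of its depot, but not absent. Some libraries stood apart. The library labelled low-fat SAT replicate 1 held 29756 CPM of 10 epididymis transcripts, against at most 0.702 CPM in the other low-fat libraries, 7474 CPM of 8 adipocyte genes against 25827 to 31601 CPM, and 5.58 CPM of 4 subcutaneous position genes against 81.7 to 97.9 CPM, so its content goes against its label. Wild-type GAT replicate 3 held 4609 CPM of the epididymis list. The 16 skeletal muscle genes summed to 76525 CPM in Azin2-/- SAT replicate 2, 67750 CPM in wild-type SAT replicate 3 and 25360 CPM in low-fat SAT replicate 5. Elsewhere the muscle list stayed at or below 6954 CPM, that of high-fat SAT replicate 6. All 8 adipocyte markers were read in every library.

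Collagen genes together took 1.70% to 2.04% of counts in Azin2-/- GAT and 1.20% to 1.47% in wild-type GAT, groups that did not overlap. In Azin2-/- SAT the share was 2.30%, 0.770% and 1.69% in replicates 1 to 3, against 1.28% to 1.80% in wild-type SAT. The lowest of these was the Azin2-/- library with most skeletal muscle transcript. In high-fat SAT the share was 1.86% to 1.94%, against 1.01% to 1.27% in 3 low-fat libraries and 0.345% in low-fat replicate 1. Fibrillar genes gave 33.3% to 50.8% of collagen counts in every library, basement membrane genes 26.4% to 36.1% and multiplexins 7.06% to 12.6%. Type VI differed by depot, with 18.1% to 21.7% of collagen counts over the 8 GAT libraries and 11.4% to 14.98% over the 16 SAT libraries. The 14.98% was that of low-fat SAT replicate 1.

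**Figure D1:**
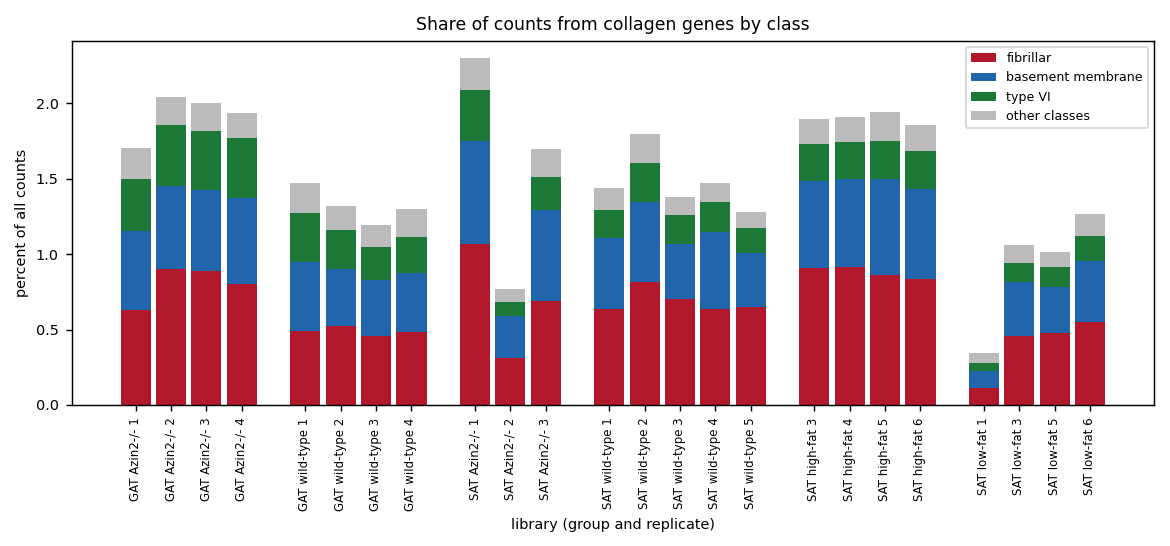
Share of all counts that came from collagen genes (percent, vertical axis) in each library (horizontal axis, group and replicate number), stacked by class. High-fat SAT libraries sit close together at 1.86% to 1.94%, low-fat SAT replicate 1 is lowest at 0.345%, and the green type VI segment is a larger part of the bar in GAT.

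The genes to which most values below belong lie in GRCm38 as follows, Col1a1 at chr11:94936224-94953042 (plus strand), Col3a1 at chr1:45311538-45349706 (plus strand), Col4a1 at chr8:11198423-11312826 (minus strand), Col6a3 at chr1:90765923-90843971 (minus strand), Col12a1 at chr9:79598991-79718831 (minus strand) and Col14a1 at chr15:55307750-55520803 (plus strand). Levels of different genes are compared per kilobase of annotated exon. Between 13 and 16 members passed 10 CPM per kb in each group, while 7 members (Col2a1, Col9a1, Col9a2, Col10a1, Col19a1, Col25a1 and Col26a1, several of them cartilage collagens) stayed under 1 CPM in every group mean. Col4a1, a chain of the ubiquitous basement membrane heterotrimer, was highest per kb in each group, at 396 ± 27.1 CPM per kb in Azin2-/- GAT and 292 ± 35.7 in wild-type GAT (SD, n = 4 each), 419 ± 140 in Azin2-/- SAT (n = 3) and 337 ± 37.0 in wild-type SAT (n = 5), and 453 ± 24.1 in high-fat SAT and 244 ± 115 in low-fat SAT (n = 4 each). Its partner Col4a2 ranked 2 or 3 in each. This order depends on the length used, since with the longest transcript Col3a1, the fibrillar chain of type III collagen typical of soft tissue, led in Azin2-/- GAT, in both SAT genotypes and in high-fat SAT, and Col4a1 in wild-type GAT and low-fat SAT. In GAT of both genotypes rank 2 belonged to Col6a1, a core chain of type VI, at 350 ± 21.1 CPM per kb in Azin2-/- and 256 ± 49.6 in wild-type GAT, against 184 ± 96.9 in Azin2-/- SAT and 183 ± 31.3 in wild-type SAT. Among minor fibrillar chains, Col5a3, which belongs to type V, stood at 124 to 179 CPM per kb in all 6 group means, above its relatives Col5a1 at 36.1 to 79.2 and Col5a2 at 24.2 to 53.2. The per-kb ratio of Col5a3 to Col5a1 ran from 2.01 to 5.70 over the 24 libraries. The 5.70 was that of low-fat SAT replicate 1, and outside low-fat SAT the ratio was at most 3.35. Without that library the low-fat means per kb were 147 for Col5a3, 44.9 for Col5a1 and 31.0 for Col5a2. That of Col4a1 was then 299 ± 41.3 CPM per kb (SD).

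**Figure D2:**
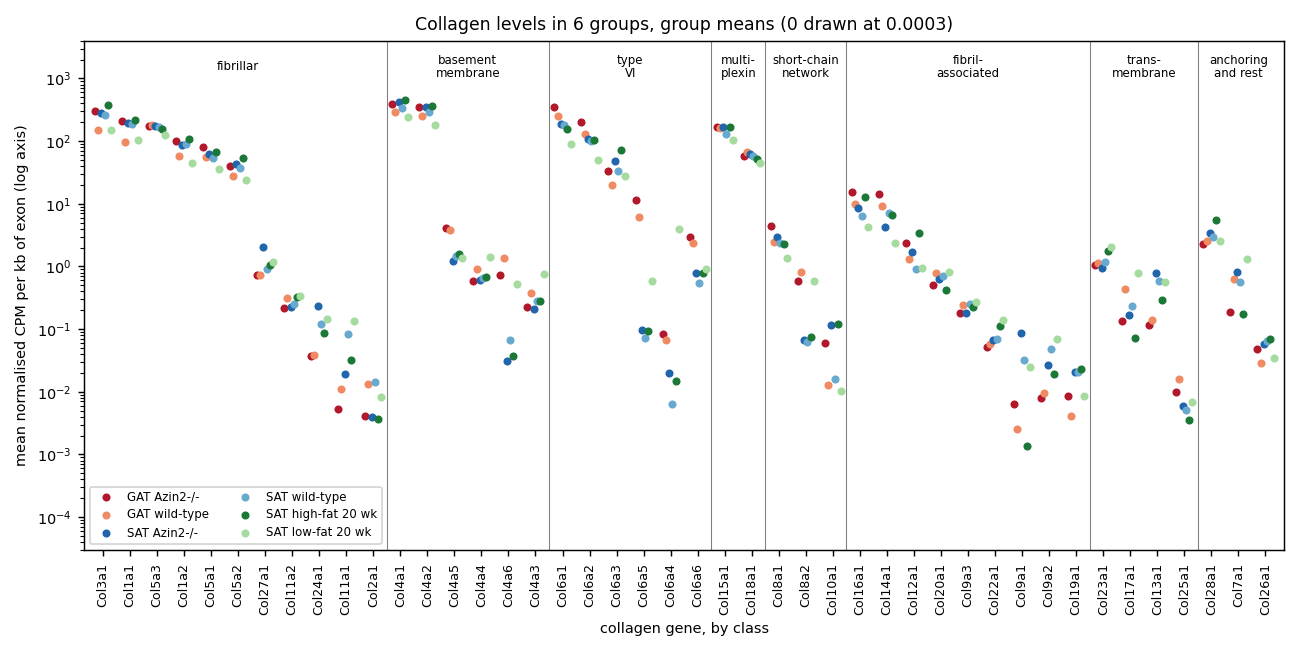
Mean level of each of the 44 collagen genes in the 6 groups, in normalised CPM per kb of exon on a log axis, ordered by class and then by highest mean. Points are group means without error bars and a mean of 0 is drawn at 0.0003. Col4a1 leads in each group, and Col6a5, Col4a6 and Col8a2 have GAT means (red and orange) far above those of SAT (blue shades and dark green). The low-fat SAT means (light green) include replicate 1, which was far above its group for these 3 genes.

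Of the chains that share a helix, Col4a1 and Col4a2 kept the narrowest proportion of the pairs compared, with a per-kb ratio of 1.07 to 1.42 over all libraries. Col6a1 over Col6a2 was 1.42 to 2.02. Col1a1 over Col1a2, the pair that makes type I collagen, was 1.45 to 2.63 by exon length and 0.691 to 1.25 by the longest transcript, so the length used sets which chain appears more abundant. Col6a3, the large chain that joins Col6a1 and Col6a2 and whose end is released as endotrophin, was the variable one. Its per-kb ratio to Col6a1 was 0.0804 to 0.112 in Azin2-/- GAT and 0.0751 to 0.0836 in wild-type GAT, which overlap. It was 0.233 to 0.284 in Azin2-/- SAT and 0.159 to 0.222 in wild-type SAT, and 0.462 to 0.484 in high-fat SAT against 0.150 to 0.333 in low-fat SAT. The 0.150 was that of low-fat replicate 1, whose content goes against its label. The SAT genotypes did not overlap, nor did high-fat and low-fat SAT, and no GAT library reached any SAT library.

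Col4a1 and Col4a2 lie head to head on chromosome 8 and share 22 bases of exon, and the strand setting of the counting is not given, so reads there could go to either. Their promoter windows in RefSeq (build GRCm38.p6, 250 bases before to 50 after the start) share 78 bases. They are shown because the pair kept the narrowest ratio. Capitals mark a CCAAT box (CCAAT, or ATTGG on the other strand) and GC boxes (GGGCGG, or CCGCCC).
Col4a1, chr8:11312777-11313076, minus strand: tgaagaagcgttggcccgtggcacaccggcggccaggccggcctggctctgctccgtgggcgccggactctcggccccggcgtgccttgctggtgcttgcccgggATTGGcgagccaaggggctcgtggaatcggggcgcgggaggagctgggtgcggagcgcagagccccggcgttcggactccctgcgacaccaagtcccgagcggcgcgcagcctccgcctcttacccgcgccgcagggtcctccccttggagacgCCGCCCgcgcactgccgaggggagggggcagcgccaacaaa
Col4a2, chr8:11312555-11312854, plus strand: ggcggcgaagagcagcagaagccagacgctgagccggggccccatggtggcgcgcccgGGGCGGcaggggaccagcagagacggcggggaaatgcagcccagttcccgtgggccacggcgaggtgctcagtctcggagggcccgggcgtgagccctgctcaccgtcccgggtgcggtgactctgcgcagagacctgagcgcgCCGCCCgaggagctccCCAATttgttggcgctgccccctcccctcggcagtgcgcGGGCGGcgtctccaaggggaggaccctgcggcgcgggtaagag
Each window holds a CCAAT box of its own, at position -145 from the start in Col4a1 and -32 in Col4a2, and the GC box at chr8:11312812-11312817 lies in both. Of 38 windows found for 35 of the 44 members, 13 held CCAAT, 23 held GGGCGG and 5 held a TATA box (TATAAA), on either strand. Over all 32851 RefSeq windows these shares were 37.41%, 35.66% and 13.62%. Neither of the pair's windows holds TATAAA. A match is a description of letters and not of bound factors.

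The first comparison asked how 20 weeks of high-fat feeding changed collagen RNA in SAT. With all 8 libraries, 3 of 37 collagens tested passed edgeR's quasi-likelihood test (adjusted p under 0.05, by the Benjamini-Hochberg method over the whole table), 2 higher and 1 lower. Of all 17066 genes tested 21.2% passed, 10.8% higher and 10.4% lower. Without the library labelled low-fat replicate 1, 19 of 38 were higher and 4 lower on high-fat diet, 23 in all. The background was wide here too, with 47% of all 17268 genes tested called, 23.5% higher and 23.5% lower. The 19 were the main fibrillar chains Col1a1, Col1a2, Col3a1, Col5a1 and Col5a2, the basement membrane chains Col4a1, Col4a2 and Col4a5, the type VI chains Col6a1, Col6a2, Col6a3 and Col6a5, and 7 others. The median log2 fold change of the 38 collagens was 0.44 beside -0.02 over all genes. In this second reading 19 to 23 collagens were called when each of the other 7 libraries was left out. DESeq2 called 25 and limma-voom 24. Over all genes, leaving out a library called 6867 to 7559, DESeq2 8361 and limma-voom 7875.

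Values are in the order of replicates 3, 4, 5 and 6 in high-fat SAT and 1, 3, 5 and 6 in low-fat SAT. Col3a1 had 3817, 3862, 3465 and 3573 CPM in high-fat SAT, against 265, 1693, 1882 and 2029 CPM in low-fat SAT. All high-fat libraries lay above all low-fat ones, and low-fat replicate 1 lay far under its group. The log2 fold change was 1.32 ± 0.53 (SE; adjusted p = 0.116, edgeR) with it and 0.97 ± 0.09 (adjusted p = 7.18e-05) without it. Col1a1, the main chain of type I collagen, had 1417, 1538, 1360 and 1334 CPM on high-fat diet, against 135, 783, 741 and 1034 CPM on low-fat diet. Its groups did not overlap, and its log2 fold change was 1.06 ± 0.51 (adjusted p = 0.17) in all libraries and 0.72 ± 0.12 (adjusted p = 0.00151) without replicate 1. Col1a2, its partner, had 1375, 1453, 1270 and 1252 CPM on high-fat against 176, 563, 700 and 766 CPM on low-fat diet, and its log2 fold change without replicate 1 was 0.98 ± 0.12 (adjusted p = 0.000274). Col5a1 and Col5a2, which sit inside type I fibrils and set their width, were higher by log2 0.59 ± 0.09 and 0.77 ± 0.12 in the reading without replicate 1. Their sister Col5a3 had a value of 0.05 ± 0.08 there and was not called, as were Col27a1 (-0.08 ± 0.09) and Col11a2 (0.01 ± 0.16).

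In the basement membrane class the members called without low-fat replicate 1 did not all move the same way. Col4a1 had 3250, 3215, 3588 and 3474 CPM in high-fat SAT, against 583, 2249, 1916 and 2532 CPM in low-fat SAT, without overlap. Its log2 fold change was 0.88 ± 0.40 (adjusted p = 0.148) in all libraries and 0.59 ± 0.10 (adjusted p = 0.00145, edgeR) without low-fat replicate 1. Col4a2 followed it at 0.75 ± 0.11 in that reading. Col4a3 and Col4a4, chains of the kidney and lung filter network, were lower at -0.64 ± 0.20 and -0.58 ± 0.17 (adjusted p = 0.0262 and 0.0243). Each lost its call when any of 4 libraries was left out, and Col4a3 shares 563 exon bases with a transcript on the other strand. Col4a5 was higher at 1.18 ± 0.16, and its neighbour Col4a6 had -1.48 ± 0.59 and was not called (adjusted p = 0.0695). Col4a6 rested on few reads, 10, 10, 21 and 5 counts in high-fat SAT. In low-fat replicates 3, 5 and 6 it had 59, 15 and 19 counts. Summed CPM of 10 endothelial genes ran from 2201 to 2368 in high-fat SAT against 1674 to 1878 in low-fat SAT without replicate 1. Whether the share of these cells has a part in the collagen values was not tested, and in bulk tissue more cells of a type and more RNA per cell cannot be told apart.

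Type VI chains did not move by equal amounts. Col6a3 had 829, 865, 904 and 863 CPM on high-fat diet, against 56.3, 368, 401 and 482 CPM on low-fat diet. Every high-fat library lay above every low-fat one, with a log2 fold change of 1.40 ± 0.54 (adjusted p = 0.103) in all libraries and 1.05 ± 0.10 (adjusted p = 9.29e-05) without replicate 1. In that reading Col6a2 was at 0.79 ± 0.11 and Col6a1 at 0.47 ± 0.11. Col6a5, a chain related to Col6a3, was at 3.78 ± 0.63, but from few reads. It had 0.741, 1.09, 0.582 and 1.15 CPM in high-fat SAT against 0.0559, 0 and 0.125 CPM in low-fat replicates 3, 5 and 6, where the count of 0 allows up to 3 counts. Low-fat replicate 1 had 22.2 CPM of it.

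Outside these classes several fibril-associated collagens, which coat fibrils without forming them, were called. Col12a1, tied to tendon and load-bearing tissue, had 51.4, 56.7, 47.3 and 56.3 CPM in high-fat SAT, against 39.1, 4.55, 4.02 and 9.63 CPM in low-fat SAT. The 39.1 CPM was again replicate 1, and without it Col12a1 was 8.67-fold higher (log2 3.12 ± 0.34, adjusted p = 0.000608). Col14a1, which binds the proteoglycan decorin, had 42.2, 39.8, 59.5 and 46.3 CPM on high-fat diet, against 37.2, 7.49, 9.48 and 11.4 CPM on low-fat diet. It was 4.94-fold higher without replicate 1 (log2 2.30 ± 0.19, adjusted p = 0.000102). Col16a1, found at fibrils and basement membranes, had 82.9, 89.98, 93.5 and 85.1 CPM on high-fat diet, against 42.0, 18.05, 20.4 and 35.3 CPM on low-fat diet. It passed in both readings, with log2 fold changes of 1.57 ± 0.29 (adjusted p = 0.00896) in all libraries and 1.83 ± 0.24 (adjusted p = 0.00115) without replicate 1. Col20a1, a fibril-associated relative of Col14a1, was the called member that was lower in both. It had 1.61, 2.20, 2.93 and 1.80 CPM on high-fat diet, against 3.49, 4.39, 4.55 and 4.24 CPM on low-fat diet, and fell by 0.99 ± 0.22 (adjusted p = 0.018) in all libraries.

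Col8a1, a short-chain collagen of vessel walls and subendothelium, had 17.0, 18.1, 18.4 and 18.1 CPM in high-fat SAT, against 6.76, 11.8, 11.7 and 13.0 CPM in low-fat SAT. Its groups did not overlap, and it was higher by log2 0.71 ± 0.18 (adjusted p = 0.0273) in all libraries and 0.55 ± 0.07 (adjusted p = 0.000357) without replicate 1. Col28a1, known from peripheral nerve sheaths, had 27.8, 24.7, 27.8 and 28.3 CPM on high-fat diet, against 4.47, 17.7, 13.0 and 14.9 CPM on low-fat diet. It was higher by 0.84 ± 0.10 (adjusted p = 0.00035) without replicate 1. The 8 Schwann cell genes summed to 231 to 294 CPM in high-fat SAT against 416 to 658 CPM in low-fat SAT without replicate 1. Their part in the Col28a1 values was not tested. The other members called in that reading were Col15a1 (0.41 ± 0.14), Col10a1 (3.003 ± 0.71, from at most 17 counts a library) and, lower, Col17a1 (-0.97 ± 0.24). Col15a1 lost its call without any of 6 libraries. In the reading of all 8 libraries, Col16a1 was called without each single library, Col20a1 lost its call without any of 4 and Col8a1 without any of 6. Of the multiplexins, whose ends are cut off as small inhibitors of vessel growth, Col18a1 was not called, at -0.03 ± 0.12.

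The machinery around collagen was read in the same fit, without low-fat replicate 1, where 23.5% of all genes were called higher and 23.5% lower. All 7 procollagen processing genes tested of 8 were higher on high-fat diet, with a median log2 fold change of 1.14 beside -0.02 over all genes, among them the propeptidases Adamts14 (1.23 ± 0.12) and Bmp1 (0.69 ± 0.09) and the enhancer Pcolce2 (2.15 ± 0.22). All 5 crosslinking enzymes were higher, with Loxl2 at 0.99 ± 0.05, Lox at 1.01 ± 0.10 and Loxl3 at 0.58 ± 0.07. Of the enzymes that modify the chains, 9 of 14 were higher and 1 lower, led by the lysyl hydroxylase Plod2 (1.34 ± 0.06), with P3h3 (0.61 ± 0.07) and Colgalt1 (0.46 ± 0.07). Of 10 folding and export genes 4 were higher and 1 lower, including the prolyl isomerase Fkbp10 (1.02 ± 0.08), the coat protein Sec23a (0.41 ± 0.08) and Sparc (0.58 ± 0.16). Of the breakdown genes 5 of 7 were higher and 1 lower, among them the lysosomal protease Ctsk (1.86 ± 0.08) and the metalloproteinases Mmp14 (1.12 ± 0.06) and Mmp2 (1.01 ± 0.08). Receptors were higher in 8 of 11, with the immune inhibitory receptor Lair1 at 2.03 ± 0.12, Antxr1 at 1.19 ± 0.09 and Ddr2 at 1.06 ± 0.11. Of 7 fibril-binding proteoglycans 6 were higher, with Lum at 1.52 ± 0.11, Aspn at 0.75 ± 0.07 and Bgn at 0.55 ± 0.07. With all 8 libraries, where 10.8% of all genes were called higher and 10.4% lower, the calls in these lists were fewer, all of them higher, with 5 of 7 processing genes, 2 of 5 crosslinking enzymes, 4 of 14 modifying enzymes, 2 of 10 folding genes, 3 of 7 breakdown genes, 3 of 11 receptors and 2 of 7 proteoglycans. Beside these counts, 10 macrophage genes summed to 1518 to 1917 CPM in high-fat SAT against 373 to 581 CPM in low-fat SAT. The 10 progenitor and fibroblast genes summed to 762 to 864 CPM against 503 to 604 CPM. Without replicate 1 the low-fat sums of these 2 cell type lists were 425 to 581 CPM and 503 to 555 CPM. Their part in the collagen values was not tested.

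**Figure D3:**
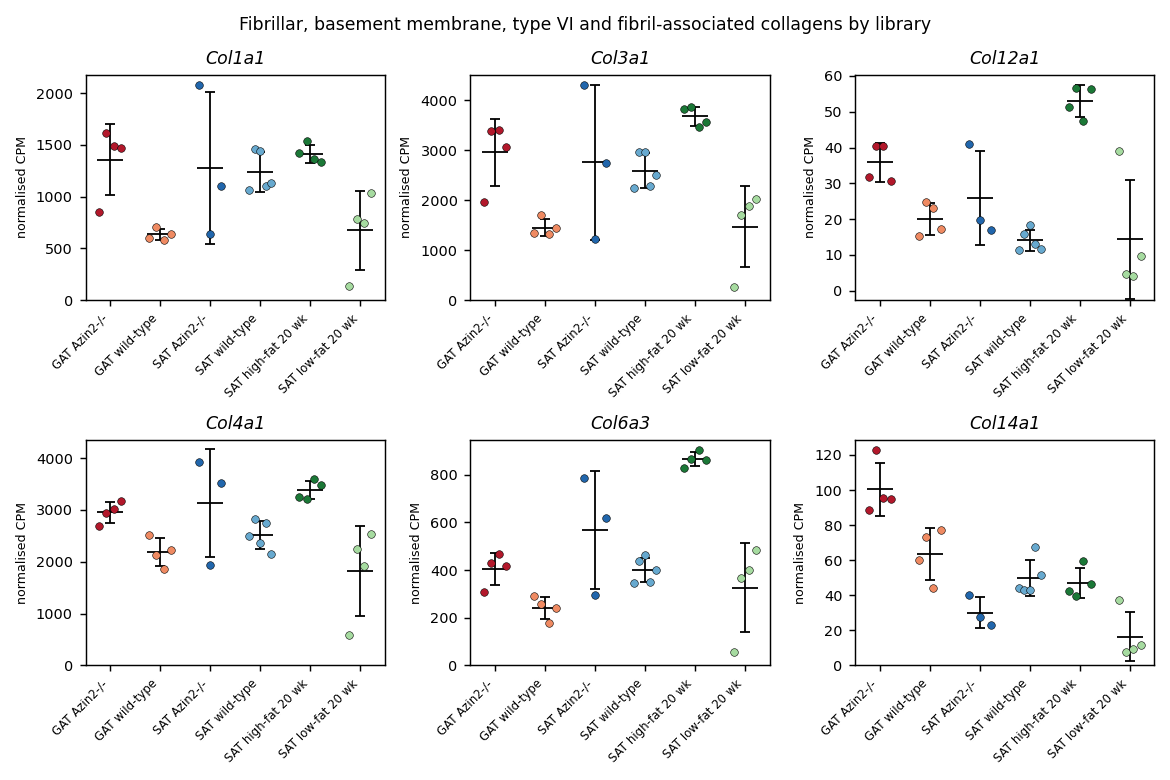
Normalised CPM (vertical axis) of 6 collagens in every library of the 6 groups. Points are libraries, the black dash is the mean and the bar 1 SD, which dips under 0 for Col12a1 in low-fat SAT. High-fat SAT lies above low-fat SAT in all 6 panels, and low-fat replicate 1, the leftmost of its group, is the lowest point for Col1a1, Col3a1, Col4a1 and Col6a3 and the highest for Col12a1 and Col14a1.

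The second comparison set Azin2-/- against wild-type GAT after 8 weeks of high-fat diet. Of 37 collagens tested, 9 were higher in Azin2-/- and 0 lower (edgeR). Of all 16778 genes tested 6.77% were called, 5.45% higher and 1.32% lower, while 17 collagens had an unadjusted p under 0.05, 45.9% of those tested beside 28.7% of all genes. The 9 were Col1a1, Col1a2, Col3a1 and Col5a1 of the fibrillar class, Col4a2 of the basement membrane, Col6a2 and Col6a3 of type VI, and Col8a1 and Col12a1. Their adjusted p lay between 0.0408 and 0.0461. All 9 calls were lost when any of Azin2-/- replicates 2, 3 and 4 or wild-type replicates 2 and 4 was left out, although no fold change turned. In each of these fits at most 1 of all genes tested was called, so that loss was not particular to collagens. Col1a2 lost its call also without wild-type replicate 1 or 3, in fits that called 1683 and 1343 of all genes. The fit of all 24 libraries called 1 member and DESeq2 16, beside 1213 and 3079 of all genes.

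Col1a1 had 851, 1613, 1487 and 1472 CPM in Azin2-/- GAT, against 602, 709, 581 and 642 CPM in wild-type GAT. The groups did not overlap, Azin2-/- replicate 1 was the lowest of its group, and the log2 fold change was 1.103 ± 0.19 (adjusted p = 0.0408). Col3a1 showed the same layout, with 1969, 3375, 3400 and 3068 CPM in Azin2-/- against 1340, 1707, 1321 and 1438 CPM in wild-type GAT and a log2 fold change of 1.03 ± 0.18 (adjusted p = 0.0408). Col1a2 had 883, 1471, 1368 and 1248 CPM in Azin2-/- against 606, 829, 680 and 794 CPM in wild-type GAT, again without overlap (0.78 ± 0.17, adjusted p = 0.0411). Col5a1 was higher by 0.50 ± 0.12. Its partner Col5a2 stood just outside the threshold at 0.57 ± 0.14 (adjusted p = 0.0506), and Col5a3 was at -0.01 ± 0.13.

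Col4a1 had 2687, 2947, 3017 and 3172 CPM in Azin2-/- GAT, against 2511, 2123, 1867 and 2229 CPM in wild-type GAT. The groups did not overlap, but at 0.45 ± 0.11 it missed the threshold (adjusted p = 0.0509), whereas Col4a2 at 0.47 ± 0.11 passed it. Col6a3 had 309, 428, 468 and 415 CPM in Azin2-/- against 289, 258, 177 and 239 CPM in wild-type GAT, with a log2 fold change of 0.76 ± 0.17 (adjusted p = 0.0411). Col6a2 was at 0.61 ± 0.14 and Col6a1 at 0.46 ± 0.14, and of this pair Col6a2 passed. Col12a1 had 31.7, 40.5, 40.5 and 30.6 CPM in Azin2-/- against 15.2, 24.8, 23.0 and 17.4 CPM in wild-type GAT (0.84 ± 0.18, adjusted p = 0.0409). Col8a1 had 30.9, 43.0, 38.0 and 27.7 CPM in Azin2-/- against 16.3, 22.9, 16.6 and 20.5 CPM in wild-type GAT (0.88 ± 0.17, adjusted p = 0.0408). In both genes each knockout library lay above each wild-type library.

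Of the machinery, breakdown genes were the list with most calls in Azin2-/- GAT, 5 higher of 7 tested with a median log2 fold change of 0.63 beside -0.03 over all genes and with 5.45% of all genes called higher and 1.32% lower. They included the collagen uptake receptor Mrc2, at 195 to 369 CPM in Azin2-/- and 103 to 139 CPM in wild-type GAT (1.35 ± 0.19), the collagenase Mmp13 (1.61 ± 0.28) and Ctsk (1.71 ± 0.33). Processing genes followed with 3 of 8 higher, Adamts2 at 0.51 ± 0.08, Pcolce2 at 0.89 ± 0.15 and Bmp1 at 0.42 ± 0.09. Single members of other lists were higher, namely Lox (0.70 ± 0.14), Lum (1.01 ± 0.22), Lair1 (1.84 ± 0.28) and Colgalt1 (0.57 ± 0.12), and Klhl12, an adaptor for large secretory coats, was lower (-0.38 ± 0.08). The 10 macrophage genes summed to 1975 to 4110 CPM in Azin2-/- against 1093 to 1638 CPM in wild-type GAT, lowest in Azin2-/- replicate 1, which was also lowest of its group for Col1a1, Col3a1 and Col6a3. The 10 progenitor and fibroblast genes overlapped, with 765 to 857 CPM in Azin2-/- and 634 to 828 CPM in wild-type GAT. Their part in the collagen values was not tested.

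The diet and GAT genotype comparisons share no library. Of 36 collagens tested in both, the 9 higher in Azin2-/- GAT were all among the 18 higher on high-fat diet without low-fat replicate 1, which is 100% of the first set and 50% of the second. Over all 16374 genes tested in both, 820 of 911 genes higher in Azin2-/- GAT were higher on high-fat diet as well, and these were 20.8% of the 3934 higher on high-fat diet. A large overlap with the diet calls was thus common to genes of the GAT genotype comparison, collagen or not.

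**Figure D4:**
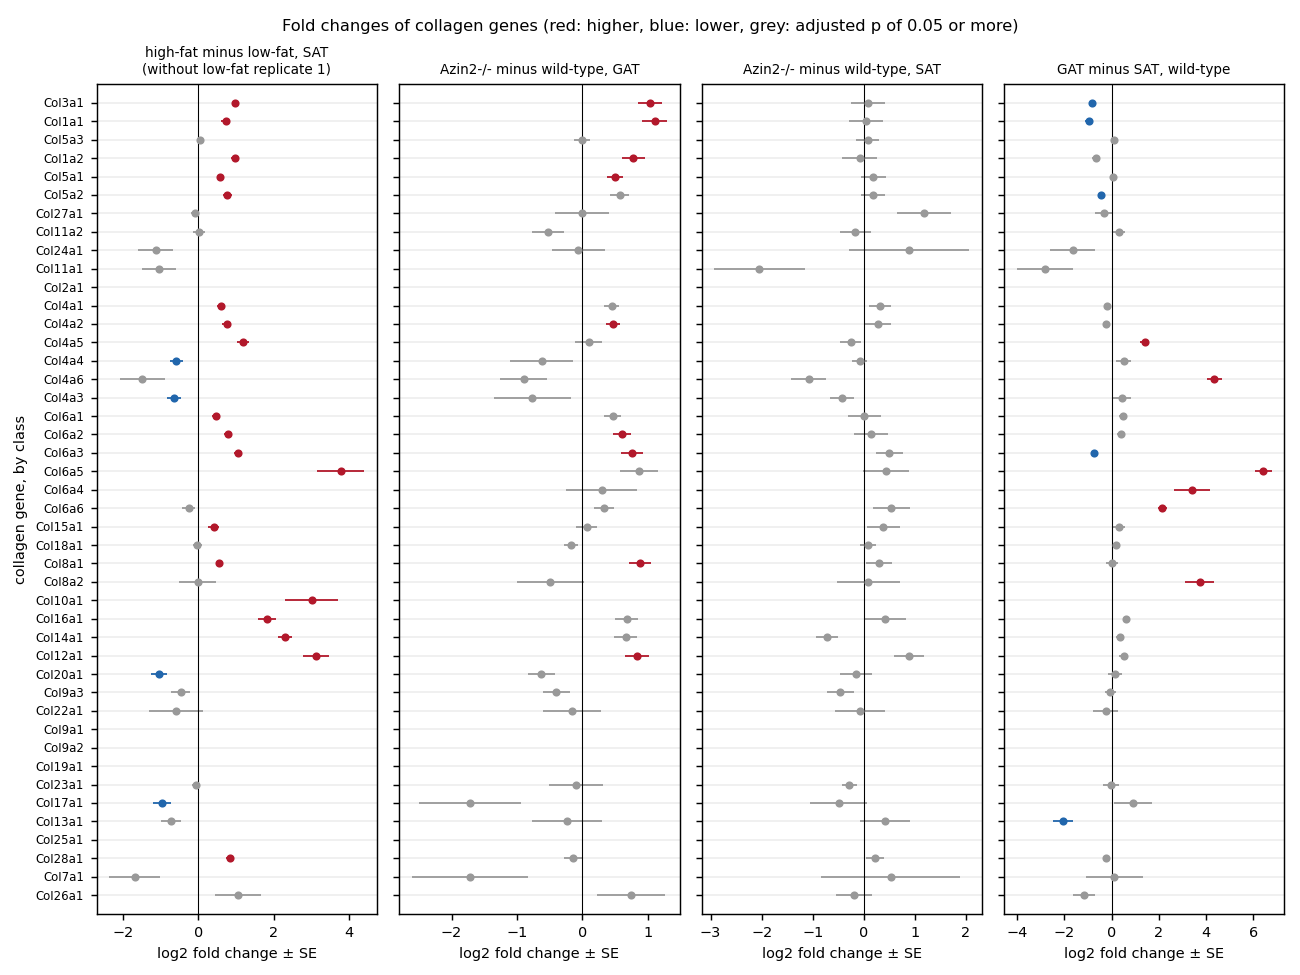
Log2 fold change with SE (horizontal axes, each with its own range) of the collagen genes tested (vertical axis, by class) in 4 comparisons. Red and blue mark members higher and lower at an adjusted p under 0.05 (edgeR), grey the rest, and a gene without a point was not tested. The diet panel has 19 red members, among them Col1a1, Col3a1, Col4a1 and Col6a3, with grey and blue members between them. The GAT genotype panel has 9 red members. The SAT genotype panel is grey throughout, and the depot panel has both colours.

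The same genotype comparison in SAT called 0 of 37 collagens, against 0.0059% of all 16948 genes tested (1 gene). DESeq2 and limma-voom called 0 collagens as well, beside 338 and 295 of all genes. In edgeR 4 collagens had an unadjusted p under 0.05, namely Col14a1, Col4a6, Col12a1 and Col11a1. They are 10.8% of those tested beside 10.3% of all genes. Replicates spread widely here. Col1a1 had 2082, 643 and 1106 CPM in Azin2-/- SAT, against 1064, 1460, 1441, 1105 and 1126 CPM in wild-type SAT, a log2 difference of 0.04 ± 0.33 (adjusted p = 0.976). Azin2-/- replicate 1 lay above and replicate 2 under all wild-type libraries. Col3a1 had 4311, 1215 and 2742 CPM in Azin2-/- against 2237, 2959, 2971, 2282 and 2510 CPM in wild-type SAT (0.08 ± 0.34, adjusted p = 0.944). Col4a1 had 3916, 1944 and 3525 CPM in Azin2-/- against 2498, 2825, 2355, 2751 and 2157 CPM in wild-type SAT (0.31 ± 0.22, adjusted p = 0.648).

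Without the pair of libraries rich in skeletal muscle transcript, Azin2-/- replicate 2 and wild-type replicate 3, 0 of 38 collagens were called, against 0.0463% of all genes tested (0.0405% higher and 0.00579% lower), and 12 had an unadjusted p under 0.05, 31.6% of those tested beside 14.5% of all genes. The smallest p was that of Col6a3, with 786 and 620 CPM in the remaining Azin2-/- libraries against 345, 440, 352 and 402 CPM in wild-type SAT (0.88 ± 0.14, adjusted p = 0.106). In the full comparison Azin2-/- replicate 2 stood at 297 CPM, and the value was 0.50 ± 0.27 (adjusted p = 0.557). The difference between the genotype effects of the depots, GAT minus SAT, was tested directly. It called 0 of 39 collagens and 0% of all 18033 genes tested. In edgeR 3 collagens, 7.69% of those tested beside 11.2% of all genes, had an unadjusted p under 0.05, Col14a1 at 1.39 ± 0.30 (adjusted p = 0.312), Col1a1 at 1.07 ± 0.40 (0.385) and Col3a1 at 0.95 ± 0.41 (0.417). DESeq2 called 1 collagen there and limma-voom 4, beside 158 and 2718 of all 18033 genes. The effect seen in GAT is thus not shown to differ from that in SAT by edgeR. Among the 7 lists of collagen machinery no gene was called in SAT.

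The third comparison set GAT against SAT. In Azin2-/- mice 8 of 38 collagens were higher in GAT and 1 lower, where 15.2% of all 16800 genes tested were called, 9.13% higher and 6.04% lower. In wild-type mice 6 of 38 were higher and 5 lower, where 4.33% of 17030 genes were called, 2.47% higher and 1.87% lower. These comparisons reuse the libraries of the genotype comparisons and are not independent of them. By limma-voom the collagens called were 15 in Azin2-/- and 20 in wild-type mice, and in the fit of all 24 libraries 7 and 6. Over all genes limma-voom called 6631 of 16800 in Azin2-/- and 2454 of 17030 in wild-type mice. The fit of all 24 libraries called 2866 and 628 of 18976 genes. Type VI split, since Col6a4, Col6a5 and Col6a6, chains related to Col6a3, were higher in GAT in both genotypes, while Col6a3 itself was lower in wild-type GAT. The 7 mesothelium genes, which mark the lining of abdominal organs, summed to 31.9 to 520 CPM in GAT and to at most 3.45 CPM in SAT of these mice, and their part in the values below was not tested.

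Col6a5 had 78.3, 132, 114 and 100 CPM in Azin2-/- GAT, against 1.68, 0.525 and 0.530 CPM in Azin2-/- SAT, and 80.2, 31.96, 76.4 and 46.3 CPM in wild-type GAT against 0.403, 0.832, 0.536, 0.935 and 0.699 CPM in wild-type SAT. No GAT library came near a SAT library of either genotype. It was 113-fold higher in GAT in Azin2-/- (log2 6.82 ± 0.49, adjusted p = 0.00294) and 85.7-fold higher in wild-type mice (6.42 ± 0.36, adjusted p = 0.000138). Its per-kb ratio to Col6a3 was 0.158 to 0.547 in the GAT libraries and at most 0.00338 in SAT of the same mice. Col6a6, 27.92 kb from Col6a5 on the same strand of chromosome 9, had 25.5, 28.2, 23.6 and 31.8 CPM in Azin2-/- GAT against 8.50, 9.76 and 2.99 CPM in Azin2-/- SAT, and 27.9, 17.3, 18.8 and 23.8 CPM in wild-type GAT against 4.51, 6.41, 4.91, 5.24 and 3.46 CPM in wild-type SAT. The log2 differences were 1.93 ± 0.39 (adjusted p = 0.0241) and 2.15 ± 0.20 (adjusted p = 0.000935). Col6a4, the remaining gene of this cluster, was at most 1.33 CPM in each GAT library and rose by 2.02 ± 0.43 in Azin2-/- (adjusted p = 0.0271) and 3.39 ± 0.77 in wild-type mice (adjusted p = 0.0400). It lost its call without any of 5 of the 7 Azin2-/- libraries and any of 8 of the 9 wild-type libraries. Of its 8526 exon bases it shares 162 with Gm47575 and 127 with Gm36993, transcripts of the other strand. The strand setting of the counting is not given, so its reads there are uncertain.

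Col6a5 lies at chr9:105856078-105960643 on the minus strand of GRCm38, Col4a5 at chrX:141475385-141689234 on the plus strand and Col4a6 at chrX:141165403-141474076 on the minus strand. The Col6a5 promoter window is shown because this gene had the widest gap between the depots. Capitals mark its GC box, and it holds no CCAAT or TATAAA.
Col6a5, chr9:105960594-105960893, minus strand: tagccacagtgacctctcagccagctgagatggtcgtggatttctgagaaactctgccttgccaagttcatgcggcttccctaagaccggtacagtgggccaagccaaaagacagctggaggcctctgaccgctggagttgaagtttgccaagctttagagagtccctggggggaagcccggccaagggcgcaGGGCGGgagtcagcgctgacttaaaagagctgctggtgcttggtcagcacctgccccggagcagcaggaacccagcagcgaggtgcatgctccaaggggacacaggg

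Col4a5 and Col4a6, the other head-to-head pair of the basement membrane class, known together from smooth muscle and epithelial basement membranes, were both higher in GAT. Col4a6 had 7.34, 7.73, 2.87 and 5.28 CPM in Azin2-/- GAT against 0.280, 0.300 and 0.167 CPM in Azin2-/- SAT, and 5.72, 10.8, 13.1 and 13.9 CPM in wild-type GAT against 0.664, 0.416, 0.620, 0.368 and 0.577 CPM in wild-type SAT. Each GAT library exceeded each SAT library, and the log2 differences were 4.53 ± 0.46 (adjusted p = 0.010) in Azin2-/- and 4.35 ± 0.31 (adjusted p = 0.000348) in wild-type mice. Col4a5 had 29.0, 34.7, 19.5 and 27.1 CPM in Azin2-/- GAT against 9.75, 8.14 and 6.73 CPM in Azin2-/- SAT, and 19.1, 23.1, 31.3 and 30.2 CPM in wild-type GAT against 8.66, 7.86, 10.6, 8.70 and 13.2 CPM in wild-type SAT. Its gap was smaller, 1.74 ± 0.22 (adjusted p = 0.0129) in Azin2-/- and 1.40 ± 0.20 (adjusted p = 0.00618) in wild-type mice. In SAT, reads of Col4a6 were close to 0 while Col4a5 was kept. The annotated genes lie 1309 bases apart on chromosome X and their windows share 0 bases, unlike those of Col4a1 and Col4a2. Both are shown for that contrast, with CCAAT and GC boxes in capitals.
Col4a5, chrX:141475169-141475468, plus strand: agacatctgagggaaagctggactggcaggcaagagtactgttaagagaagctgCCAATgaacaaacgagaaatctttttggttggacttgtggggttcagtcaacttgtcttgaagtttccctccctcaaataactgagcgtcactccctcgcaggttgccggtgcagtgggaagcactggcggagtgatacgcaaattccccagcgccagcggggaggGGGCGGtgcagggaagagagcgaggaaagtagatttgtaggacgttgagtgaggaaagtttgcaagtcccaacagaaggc
Col4a6, chrX:141474027-141474326, minus strand: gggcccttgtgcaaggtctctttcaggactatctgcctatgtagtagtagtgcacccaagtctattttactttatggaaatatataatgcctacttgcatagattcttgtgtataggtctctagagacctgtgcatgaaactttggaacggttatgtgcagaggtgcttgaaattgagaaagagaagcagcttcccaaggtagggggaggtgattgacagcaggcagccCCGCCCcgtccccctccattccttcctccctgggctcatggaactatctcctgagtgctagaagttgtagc
The Col4a5 window holds a CCAAT box and a GC box, that of Col4a6 a GC box, and neither holds TATAAA.

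Col8a2, the partner of Col8a1 best known from the corneal endothelium, had 4.64, 2.53, 1.75 and 1.56 CPM in Azin2-/- GAT against 0.280, 0.413 and 0.195 CPM in Azin2-/- SAT, and 1.15, 3.75, 4.58 and 5.34 CPM in wild-type GAT against 0.308, 0.125, 0.649, 0.142 and 0.152 CPM in wild-type SAT. GAT and SAT did not overlap in either genotype (3.15 ± 0.52, adjusted p = 0.0188, and 3.73 ± 0.61, adjusted p = 0.0114). Transmembrane Col13a1, known from the neuromuscular junction, went the other way. It was at or under 1.04 CPM in every GAT library, against 1.32 to 5.52 CPM in Azin2-/- SAT and 1.18 to 3.84 CPM in wild-type SAT, and fell by 2.72 ± 0.64 in Azin2-/- GAT (adjusted p = 0.0331) and by 2.07 ± 0.44 in wild-type GAT (adjusted p = 0.0303). The call was lost without any of 6 of the 7 Azin2-/- libraries and any of 5 of the 9 wild-type libraries.

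**Figure D5:**
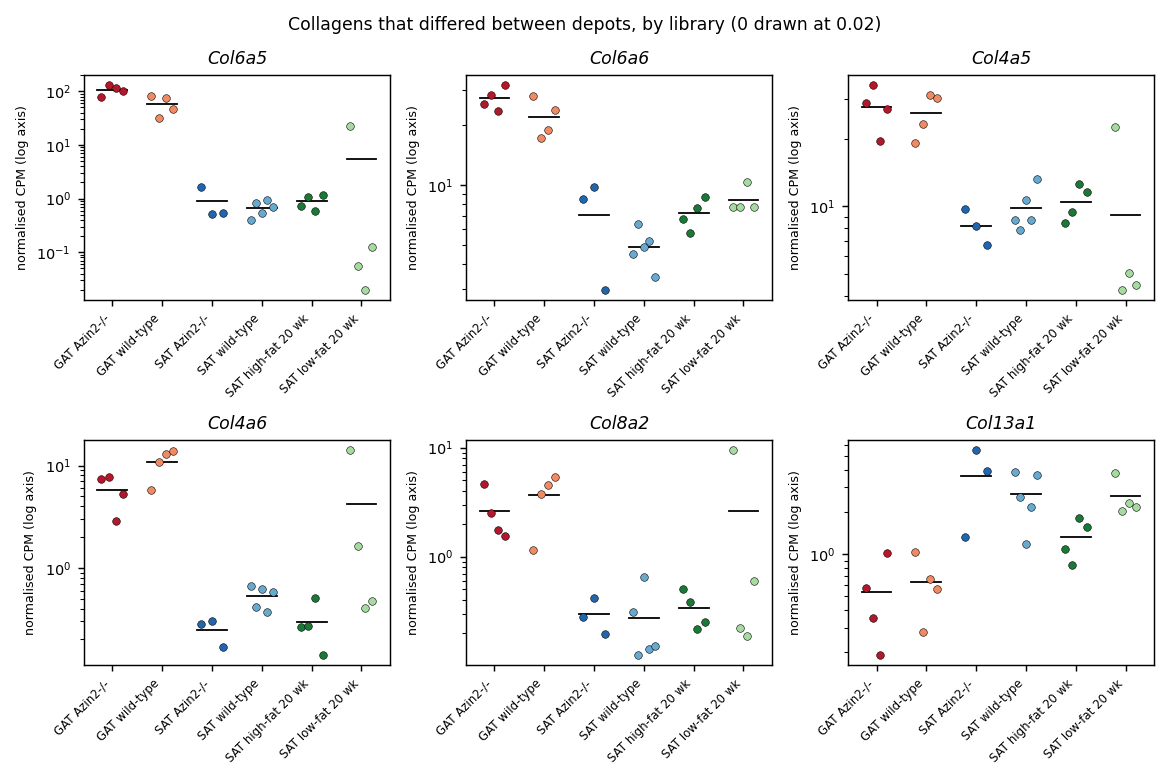
Normalised CPM on a log axis of 6 collagens that differed between depots, in every library of the 6 groups. Points are libraries, the dash is the group mean and a count of 0 is drawn at 0.02. GAT lies above SAT of the same genotype in all panels but Col13a1, where it lies under, and the leftmost low-fat SAT point, replicate 1, sits far above the other low-fat points for Col6a5, Col4a5, Col4a6 and Col8a2.

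Of 10 fibrillar genes tested in wild-type mice, Col1a1, Col3a1 and Col5a2 were lower in GAT and 0 were higher. Col1a1 had 602, 709, 581 and 642 CPM in wild-type GAT, against 1064, 1460, 1441, 1105 and 1126 CPM in wild-type SAT, and fell by 0.97 ± 0.13 in GAT (adjusted p = 0.00578). Col3a1 had 1340, 1707, 1321 and 1438 CPM in wild-type GAT, against 2237, 2959, 2971, 2282 and 2510 CPM in wild-type SAT, and fell by 0.84 ± 0.13 (adjusted p = 0.0106). Neither gene's groups overlapped. Col6a3, at 289, 258, 177 and 239 CPM in GAT against 345, 440, 463, 352 and 402 CPM in SAT, fell by 0.74 ± 0.15 (adjusted p = 0.027), and Col5a2 by 0.45 ± 0.10 (adjusted p = 0.0446). Col6a3 lost its call without any of 4 libraries and Col5a2 without any of the 9. Col4a1 was not called, with a log2 difference of -0.21 ± 0.12 (adjusted p = 0.317), nor were the fibrillar Col5a1 (0.06 ± 0.14) and Col5a3 (0.10 ± 0.14). The 10 progenitor and fibroblast genes summed to 634 to 828 CPM in wild-type GAT against 802 to 1017 CPM in wild-type SAT, with 2 of the 10 called lower, and their part in these values was not tested.

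In Azin2-/- mice the same fibrillar genes had log2 differences of 0.09 ± 0.39 for Col1a1 (adjusted p = 0.895) and 0.10 ± 0.40 for Col3a1 (adjusted p = 0.876). The interaction values given above are the test of that contrast. Col14a1 was higher in Azin2-/- GAT, at 88.4, 123, 95.2 and 95.1 CPM against 39.9, 27.3 and 22.9 CPM in Azin2-/- SAT, without overlap (1.74 ± 0.22, adjusted p = 0.0127). In wild-type mice it had 60.1, 73.4, 44.4 and 77.0 CPM in GAT against 43.8, 43.3, 43.2, 67.3 and 51.6 CPM in SAT, groups that overlapped (0.35 ± 0.18, adjusted p = 0.293). Col8a1 rose by 0.61 ± 0.16 in Azin2-/- GAT against Azin2-/- SAT (adjusted p = 0.0436), with 0.02 ± 0.24 in wild-type mice. Without Azin2-/- GAT replicate 2 or Azin2-/- SAT replicate 3, 2 of the 9 calls between Azin2-/- depots remained in number. Over all genes these fits called 36 and 40, against 2549 in the main fit.

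Of the genes in the 7 lists of collagen machinery, 13 of 63 tested were called between depots in Azin2-/- mice (20.6%, beside 15.2% of all genes), 9 higher in GAT and 4 lower. In wild-type mice 6 of 62 were called (9.68%, beside 4.33% of all genes), 2 higher and 4 lower. In Azin2-/- mice Loxl4 (1.38 ± 0.33), Fmod (1.83 ± 0.40), Dcn (0.75 ± 0.16), the processing protease Tll2 (2.40 ± 0.45), Antxr2 (0.65 ± 0.09) and Lair1 (2.40 ± 0.35) were among those higher in GAT, and Colgalt2 (-0.98 ± 0.13), P4ha2 (-0.36 ± 0.08), Klhl12 (-0.53 ± 0.13) and Cspg4 (-0.98 ± 0.18) were lower. In wild-type mice lower in GAT were the crosslinking enzyme Lox (-1.04 ± 0.09), the processing enhancer Pcolce (-0.95 ± 0.18) and the metalloproteinases Mmp2 (-1.16 ± 0.17) and Mmp14 (-0.48 ± 0.11), and higher were Loxl4 (0.88 ± 0.16) and the proteoglycan Fmod (2.93 ± 0.54).

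Among members of low level, several were high in single libraries. Col7a1, the anchoring fibril of skin, had 22.3 CPM in Azin2-/- SAT replicate 2, 22.1 in wild-type SAT replicate 3, 20.5 in wild-type GAT replicate 3, 36.3 in low-fat SAT replicate 1 and 11.7 in low-fat SAT replicate 5, the libraries with most muscle or epididymis transcript, and at most 3.34 CPM in each of the other 19. Col24a1 reached 4.24 CPM in Azin2-/- SAT replicate 2 and 3.21 CPM in wild-type SAT replicate 3. Col22a1, known from muscle-tendon junctions, was highest in low-fat SAT replicate 5 at 3.64 CPM and Col17a1, an epithelial hemidesmosome collagen, in low-fat SAT replicate 1 at 16.4 CPM. Col6a4 was at 133 CPM in low-fat SAT replicate 1 and at most 1.33 CPM elsewhere. Col2a1, Col9a1, Col9a2, Col19a1 and Col25a1 passed the filter on low counts in no comparison. Col5a3, Col7a1, Col9a3, Col11a1, Col11a2, Col18a1, Col22a1, Col23a1, Col24a1, Col26a1 and Col27a1 were tested in at least 1 and called by edgeR in none.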

How the data were processed

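Total RNA of 24 stranded, paired-end TruSeq libraries was counted per Ensembl gene, and the authors deposited raw, unnormalised counts. The tools listed per the submitters' processing notes are HTSeq 0.6.1p1 for counting, STAR and cutadapt, and the builds are GRCm38 and mm10. Counting mode and strand setting: not given in the sources used here. Of 49585 identifiers, 49326 are in GENCODE M21, and the other 259 held 0.0103% of counts. The labels do not state that libraries are separate animals, so p-values measure the spread between libraries, which may in part be technical. A count of 0 allows up to 3 counts (95% confidence, counting error only).

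The main test was edgeR's (4.0.16, in R 4.3.3) on the libraries of each comparison, with filterByExpr (minimum count 10, minimum total 15), TMM and the robust quasi-likelihood test, adjusted over all genes tested. Log2 fold changes are high-fat minus low-fat, Azin2-/- minus wild-type and GAT minus SAT. DESeq2 1.42.0, limma 3.58.1 (voom with quality weights), all 24 libraries in 1 fit, no filter, blocks and left-out libraries were alternatives. The tests were tried on simulated data. The collagens, classes, lists, alternatives and tests were chosen with earlier results of these data known. Per library values are given for Col1a1, Col3a1, Col4a1 and Col6a3 and for up to 6 called members of smallest p with a mean of at least 1 CPM per comparison, and up to 3 called genes per list are named. Other members named with values in single libraries (Col7a1, Col24a1, Col22a1, Col17a1 and Col6a4), and Col12a1 in the diet comparison, were picked after their values were seen. Members of low level were tested where they passed the filter.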

Additional observations from a re-analysis of the deposited data

Results flagged for a closer look

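A library far from the others of its group by Dixon's criterion at 95% was searched for in groups of 4 or 5 libraries. These were 80 groups of 16 collagens and 5 groups of the collagen share of counts, 85 in all, and 8 met it. Chance alone gives about 1 in 20 groups. Of the 8, 6 were the library labelled low-fat SAT replicate 1. Its Col12a1 level was 39.1 CPM, the rest of its group lying at 4.02 to 9.63 CPM. It had 37.2 CPM of Col14a1 against 7.49 to 11.4, 22.6 CPM of Col4a5 against 4.25 to 5.06, 14.2 CPM of Col4a6 against 0.402 to 1.65, 22.2 CPM of Col6a5 against 0 to 0.125, and 9.50 CPM of Col8a2 against 0.188 to 0.602. Of these 6 genes, Col4a5, Col4a6, Col6a5 and Col8a2 were higher in GAT than in SAT in both genotypes. The same library held the epididymis and mesothelium transcripts described above, and the part of these tissues in its collagen values was not tested.

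High-fat SAT replicate 4 had 24.7 CPM of Col28a1, against 27.8 to 28.3 CPM in the other high-fat libraries. Low-fat SAT replicate 5 had 10.4 CPM of Col6a6, and the rest of its group 7.74 to 7.79 CPM.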

How the results depend on the processing

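In the diet comparison 3 collagens were called in the edgeR fit of 8 libraries, 16 by DESeq2 and 22 by limma-voom. The fit of all 24 libraries gave 22 and the fit without low-fat SAT replicates 1 and 5 gave 22. Over all genes the main fit called 3622 of 17066, DESeq2 5395 and limma-voom 7985. All 24 libraries in 1 fit called 6056 of 18976 genes, and the fit without both low-fat libraries 7427 of 17583. Leaving out 1 library gave 1 to 23 collagens, the highest without low-fat replicate 1 (1 without high-fat replicate 4 or 6, 5 without low-fat replicate 6). Over all genes these fits called 1802 to 8109. For genotype in GAT, 9 called, DESeq2 gave 16, limma-voom 22, no low-count filter 0, all 24 libraries 1 and left-out libraries 0 to 13. Over all genes the main fit called 1136, DESeq2 3079 and limma-voom 6454. No filter gave 0 genes, all 24 libraries 1213 and left-out libraries 0 to 2672. For depot in wild-type mice, 11 called, limma-voom gave 20, all 24 libraries 6 and left-out libraries 7 to 12, with 7 without GAT replicate 2 or 4. Over all genes the main fit called 738, limma-voom 2454, all 24 libraries 628 and left-out libraries 296 to 909. For depot in Azin2-/- mice, 9 called, limma-voom gave 15 and left-out libraries 2 to 13, with 5 without GAT replicate 3 or 4. Over all genes the main fit called 2549, limma-voom 6631 and left-out libraries 36 to 3414. For the difference between depots, 0 called, DESeq2 gave 1 and limma-voom 4. Over all genes the main fit called 0, DESeq2 158 and limma-voom 2718. The collagen share of counts in high-fat SAT was 1.98% without muscle, epididymis and mitochondrial genes in the denominator. Other groups are not given with that denominator, so the value does not show how the differences between groups would change. The cause of these changes was not tested.

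Values that changed sign were not called in the main fit. In genotype in SAT, left-out libraries gave -0.51 to 0.36 for Col1a1 and -0.40 to 0.44 for Col3a1, and without both libraries rich in muscle transcript the values were 0.43 and 0.51. In depot in Azin2-/- they gave -0.23 to 0.64 for Col1a1, -0.25 to 0.59 for Col3a1 and -0.32 to 0.12 for Col4a1, and in the difference between depots -0.10 to 0.33 for Col4a1 and -0.04 to 0.57 for Col6a3. Without all 3 libraries rich in muscle or epididymis transcript the difference between depots was -0.15 for Col4a1 and -0.22 for Col6a3.

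Groups share numbers or other marks in their titles, but the labels do not say that these mark 1 animal or litter. Libraries of equal mark did not deviate together in every pair. With the number as a block, 19 collagens were called in the diet comparison, 0 in depot in wild-type, 7 in depot in Azin2-/- and 0 in the difference between depots. Over all genes, in the same order, it called 5867 of 17066, 0 of 17030, 1099 of 16800 and 0 of 18033. Under that block Col4a1 was at 0.19 and Col6a3 at 0.061 in depot in Azin2-/-. A block from the marks that the titles of both genotypes share, added after seeing the data, called 8 collagens in genotype in GAT and 0 in genotype in SAT. Over all genes it called 1716 and 0. In SAT only 2 marks are shared, with correlations of 0.863 and 0.576. The pair at 0.863 was Azin2-/- replicate 2 and wild-type replicate 3, the libraries rich in muscle transcript. A pair of unlike mark reached 0.634, so these values do not show that a shared mark is 1 animal or litter. The block gave -0.61 for Col1a1, -0.59 for Col3a1 and -0.015 for Col6a3, none called.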
